A study of Homo sapiens with 4 samples.

Results

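Mitochondrial ribosomal protein genes were taken as the protein-coding genes whose GENCODE symbol starts with MRPL or MRPS followed by a digit. There were 78 of them among the 58735 Ensembl gene identifiers measured, 49 with an MRPL symbol, for proteins of the large subunit, and 29 with an MRPS symbol, for proteins of the small subunit. RNA of HCT116 cells, a human colorectal carcinoma line, was sequenced 48 h after siRNA transfection, in 2 libraries from a control siRNA and 2 libraries from siRNAs against the kinesin gene KIF26B. All 4 libraries came from the same cell line in the same medium and no other agent is named in the labels. Nothing in the labels says that the 2 libraries of a group came from separate cultures, and which siRNA was used in which library is not given there, so P values measure only the spread between these libraries. The deposited values are FPKM, fragment counts divided by exon length and by a fragment total taken for each library. Their sum is not the same in every library, so comparisons between libraries are also given with values scaled to a common total. Comparisons between genes depend on the exon length taken for each.

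Mitochondria translate the few proteins encoded by their own genome on a ribosome of their own. Its rRNAs are transcribed in the organelle, whereas its proteins are encoded in the nucleus, made in the cytosol and imported. Many of these proteins have counterparts in the bacterial ribosome, and others are found only in mitochondria. The products are subunits of the respiratory chain and ATP synthase, so the supply of these proteins bears on oxidative metabolism in colon carcinoma cells as in other cells.

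The targeted gene was close to the detection limit. KIF26B read 0.11 and 0.205 FPKM in the controls against 0.14 and 0.0307 FPKM after KIF26B siRNA, from at least 31, 73, 43 and 8 reads. KIF26B siRNA replicate 1 thus lay between the controls, and its label is not borne out by this gene. Without a filter on low values the log2 difference of KIF26B was -0.09 ± 0.09 (SE, n = 2 per group, limma adjusted p = 0.775). Libraries are named by their labels throughout. The fragment totals implied by the values were between 18068934 and 24673739. The whole reads recovered from the values summed to 18572446 in KIF26B siRNA replicate 2, above its implied total of 18068934. In every other library they summed to less than the implied total. The reason was not tested. The epithelial markers EPCAM, KRT8, KRT18, KRT19 and CDH1 were at 17.7 FPKM or above in every library, CDX2 at 2.32 FPKM or above, and LGALS4 at 0.124 FPKM or below. PTPRC, CD3E, CD68 and COL3A1 were at or near 0, whereas the collagen gene COL1A1 read between 4.74 and 8.69 FPKM. Transcripts of the mitochondrial genome took 25.5% and 25.4% of all FPKM in the controls but 32.8% and 26% with KIF26B siRNA. A rise there lowers the share left for nuclear genes once values are rescaled to a common total.

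Most members were expressed at moderate levels in FPKM, a value that depends on the exon length taken for each gene. MRPL42, with 16368 annotated exon bases on GRCh37, had a mean of 7.15 FPKM from at least 2070, 2871, 2298 and 2524 reads (controls, then KIF26B siRNA). MRPL14, with 957 such bases, had 48.7 FPKM from at least 958, 1285, 1019 and 691 reads. The part of length was not tested, and MRPL42 was picked after its values were seen. The median member had a mean of 14.9 FPKM over the 4 libraries, against 7.51 FPKM for the 11205 protein-coding genes that reached an average of 1 FPKM. Of the 78 members, 59 had at least 10 FPKM and 8 had less than 5 FPKM. By subunit, the median was 15.9 FPKM for the large subunit (n = 49, 1.46 to 59.9 FPKM) and 14.6 FPKM for the small subunit (n = 29, 0.122 to 65.9 FPKM). Together the members made up 0.48% and 0.486% of all FPKM in the controls and 0.458% and 0.423% with KIF26B siRNA. Of nuclear FPKM alone they made up 0.645% and 0.651% against 0.681% and 0.571%, where the groups overlapped. The order of the members hardly changed between libraries. Spearman's rho over the 78 genes was 0.992 between the controls, 0.938 between the KIF26B siRNA libraries and 0.943 to 0.967 across the groups, as a description of genes that share each library's depth.

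In the large subunit the highest members were MRPL51, MRPL41 and MRPL14. MRPL51, a protein found only in mitochondrial ribosomes, read 64.9 and 65.1 FPKM in the controls and 52.2 and 57.3 FPKM with KIF26B siRNA. MRPL41, likewise mitochondrion-specific, read 56.3 and 60.8 FPKM in the controls against 48.6 and 53.9 FPKM. MRPL14, the counterpart of a conserved bacterial protein at the subunit interface, read 50.9 and 54.3 FPKM against 49.7 and 39.9 FPKM. In each of these 3 genes both KIF26B siRNA libraries lay below both controls, and none passed P below 0.05. MRPL51 was above MRPL41 in every library, although their values overlapped between libraries. MRPL41 was above MRPL14 except in KIF26B siRNA replicate 1, so the order of these last 2 was not the same in every library. In the small subunit the top member was MRPS34 (mean 65.9 FPKM over the 4 libraries), followed by MRPS26 and MRPS21. MRPS26 read 37.4, 37.2, 39.1 and 41.3 FPKM and MRPS21 read 36.2, 36.3, 39.8 and 41.7 FPKM, in the order controls 1 and 2, then KIF26B siRNA 1 and 2. These last 2 genes overlap in level.

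**Figure D1:**
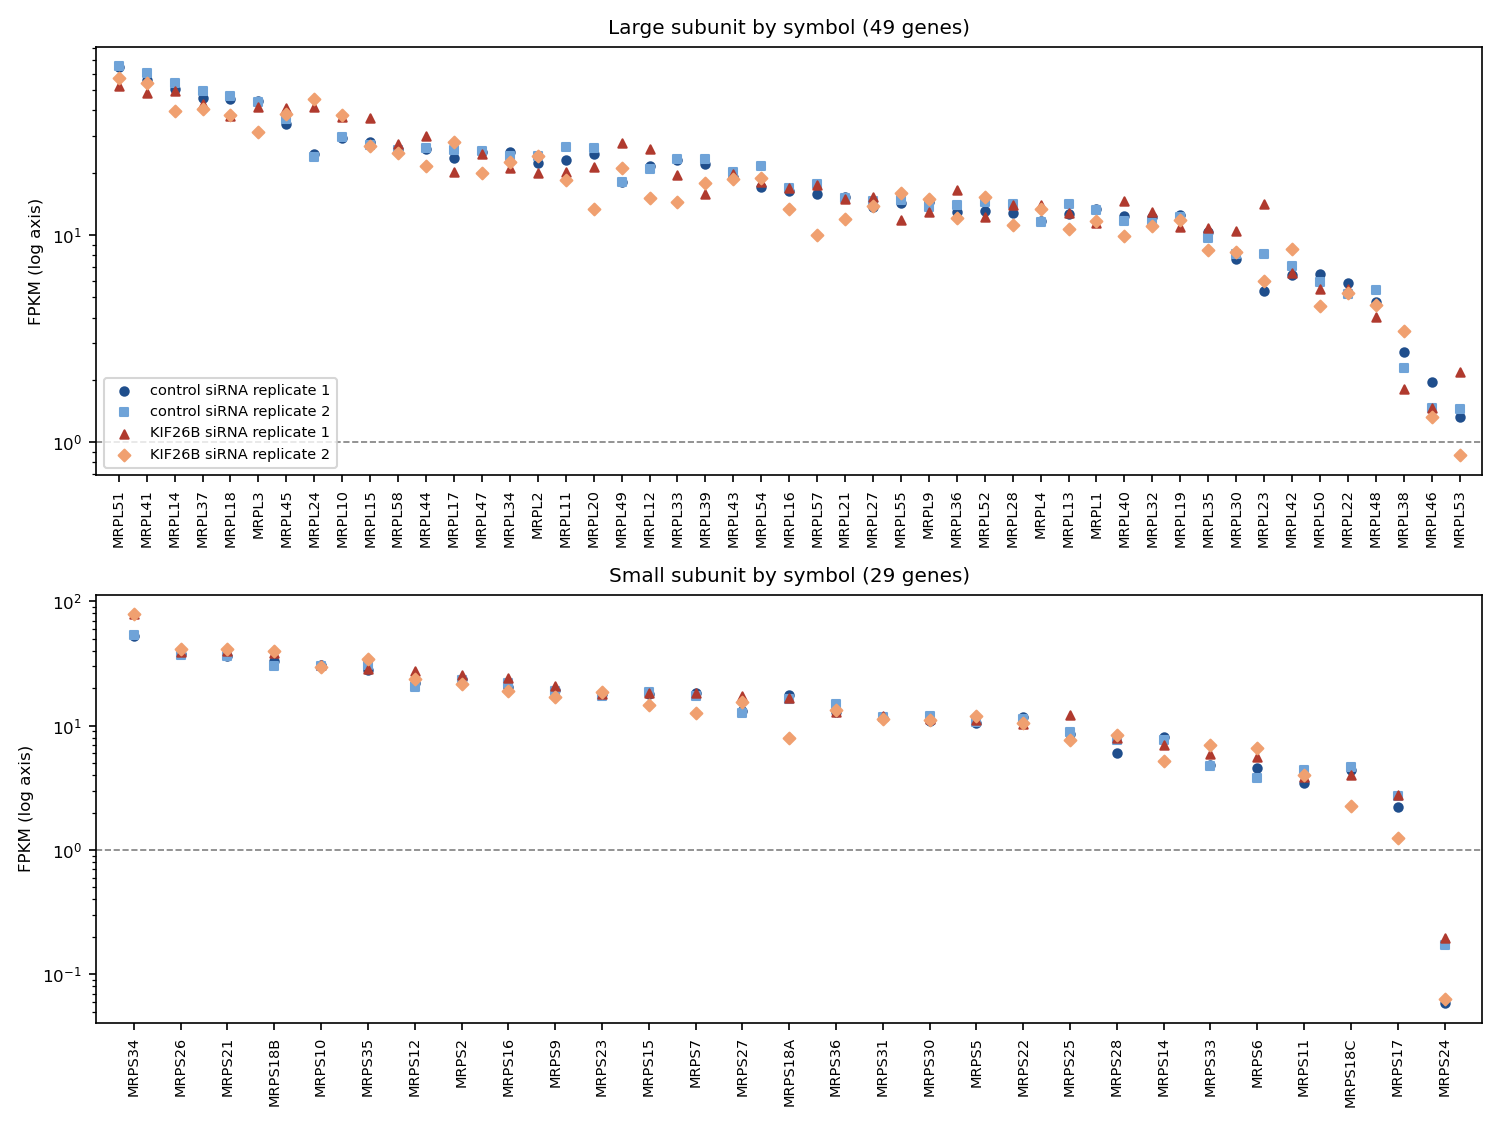
FPKM of every member in every library (log axis), with the large subunit above and the small subunit below, each sorted by mean level; the dashed line marks 1 FPKM, the minimum mean for testing. Most members lie between 10 and 60 FPKM, the 4 libraries of a gene lie close together, and MRPS24 is the only gene below 1 FPKM in all 4 libraries.

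One member was barely detected. MRPS24, the counterpart of bacterial S3 at the mRNA entry of the small subunit, read 0.0585, 0.171, 0.197 and 0.0635 FPKM, from at least 3, 11, 11 and 3 reads. It was the only member below the filter of a mean of 1 FPKM, so 77 members were tested. The next lowest were MRPL53 with a mean of 1.46 FPKM, MRPL46 with 1.55 FPKM, MRPS17 with 2.23 FPKM, MRPL38 with 2.56 FPKM and MRPS18C with 3.83 FPKM. Each of these 6 genes shares exon bases with another annotated gene on GRCh37, namely 23.2% of those of MRPS24, 99.4% of MRPL53, 11.3% of MRPL46, 25% of MRPS17, 45.1% of MRPL38 and 40.2% of MRPS18C. The readthrough gene URGCP-MRPS24, which contains MRPS24 exons, was at 0 FPKM in all 4 libraries. The annotated gene that shares exons with MRPL53 was not among the identifiers measured. Exon sharing was thus read from an annotation that differs, at least for that gene, from the one used for counting. Reads lying in exons of more than 1 counted gene may have been left out of both, and how the counting treated them is not stated. The part of shared exons in these levels was therefore not tested, and neither was that of exon length.

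Over all members the relation was weak. By their means over the 4 libraries, the 41 members with shared exon bases had a median of 14 FPKM. The 37 without had a median of 17.4 FPKM, with no mean below 4.7 FPKM. Spearman's rho between the shared share and the mean level was -0.245 over the 78 genes, given as a description. Counter-examples were MRPL12, with 69.5% of its exon bases shared and a mean of 20.8 FPKM, and MRPS34, with 31.2% shared with EME2. The members also have processed copies in the genome. Of 79 pseudogenes with MRPL or MRPS symbols, 49 were at 0 in every library and the highest single value was 3.1 FPKM. Reads split between a member and such a copy would be uncertain.

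**Figure D2:**
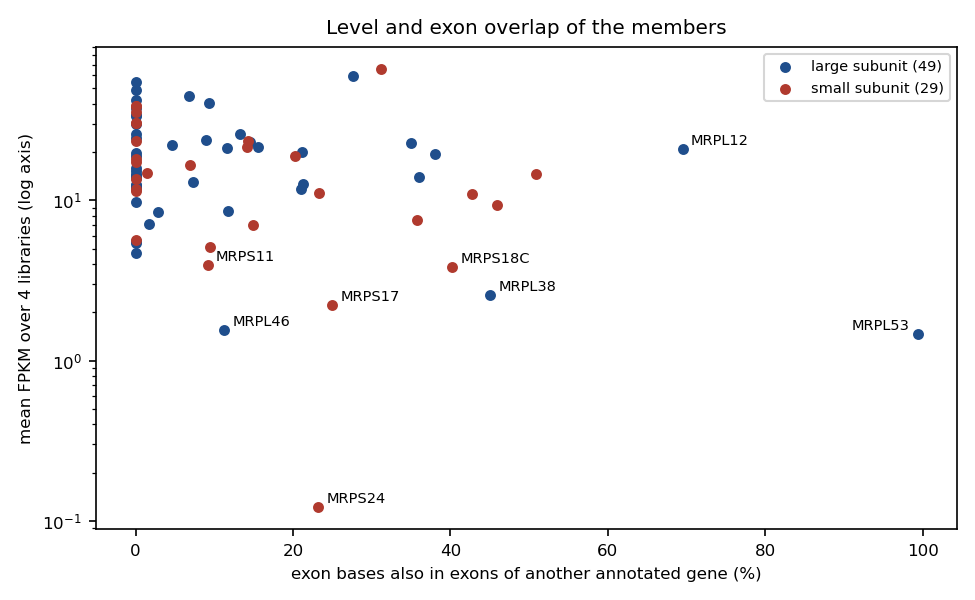
Mean FPKM over the 4 libraries (log axis) of each member against the percentage of its exon bases that also lie in exons of another annotated gene, with large subunit genes in blue and small subunit genes in red. The 7 members below 4 FPKM all have shared exon bases, while MRPL12 at 69.5% has a mean of 20.8 FPKM.

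KIF26B siRNA was then compared with control siRNA across the members with limma on log2(FPKM + 1), a scale that understates changes of low genes. Few members changed, and by moderate amounts. At an unadjusted P below 0.05, the limit below which members are said here to have risen or fallen, 5 members were higher and 1 was lower among the 77 tested. These 6 were 7.79% of the members, whereas 16.4% of the 14523 genes tested passed the same limit, 7.74% of them higher and 8.68% lower. With values scaled to TPM, a common total per library that lowered the median of all genes to -0.12, the split turned to 2 higher and 5 lower. Of all genes tested, 643 were then higher and 2145 lower. No member passed the study's added limit of a log2 difference beyond 1, which 0.813% of genes passed upwards and 0.606% downwards. At a Benjamini-Hochberg adjusted p below 0.05, limma called 0 of the members and 0% of all genes, and the smallest adjusted p of a member was 0.242. Limma-voom on whole reads recovered from the values also called 0 genes at that limit, with 2583 genes, among them 3 members lower and 6 higher, at an unadjusted P below 0.05.

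These counts changed with the library left out. Without KIF26B siRNA replicate 1, the library in which KIF26B lay between the controls, 20 members were lower and 8 higher at P below 0.05, and 46.6% of all genes passed. That fit alone, among those that left out a library, gave limma calls at an adjusted p below 0.05, 2507 genes in all, with 0.0463 as the smallest adjusted p of a member. Without KIF26B siRNA replicate 2, 5 were lower and 14 higher, and 39.9% of all genes passed. Without either control library, fewer members passed than in the fit to all 4 libraries, and so did a smaller share of all genes. In these fits the lone library of a group was assumed to vary like the pair in the other group, and the control pair was much more alike than the KIF26B siRNA pair.

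The closeness of the controls was plain in the members. Between control replicates 1 and 2 the log2 difference of the 77 members had a median of 0.02 with quartiles of -0.04 and 0.11. Between KIF26B siRNA replicates 1 and 2 the median was -0.09 with quartiles of -0.32 and 0.07. Thus 47 of 77 members were lower in KIF26B siRNA replicate 2 than in replicate 1, or 61%, against 47.3% of all genes tested. The widest gap was in MRPL23, near the exit of the peptide tunnel, with 5.36 and 8.09 FPKM in the controls but 14.1 and 5.97 FPKM with KIF26B siRNA. This gene was picked after its values were seen.

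**Figure D3:**
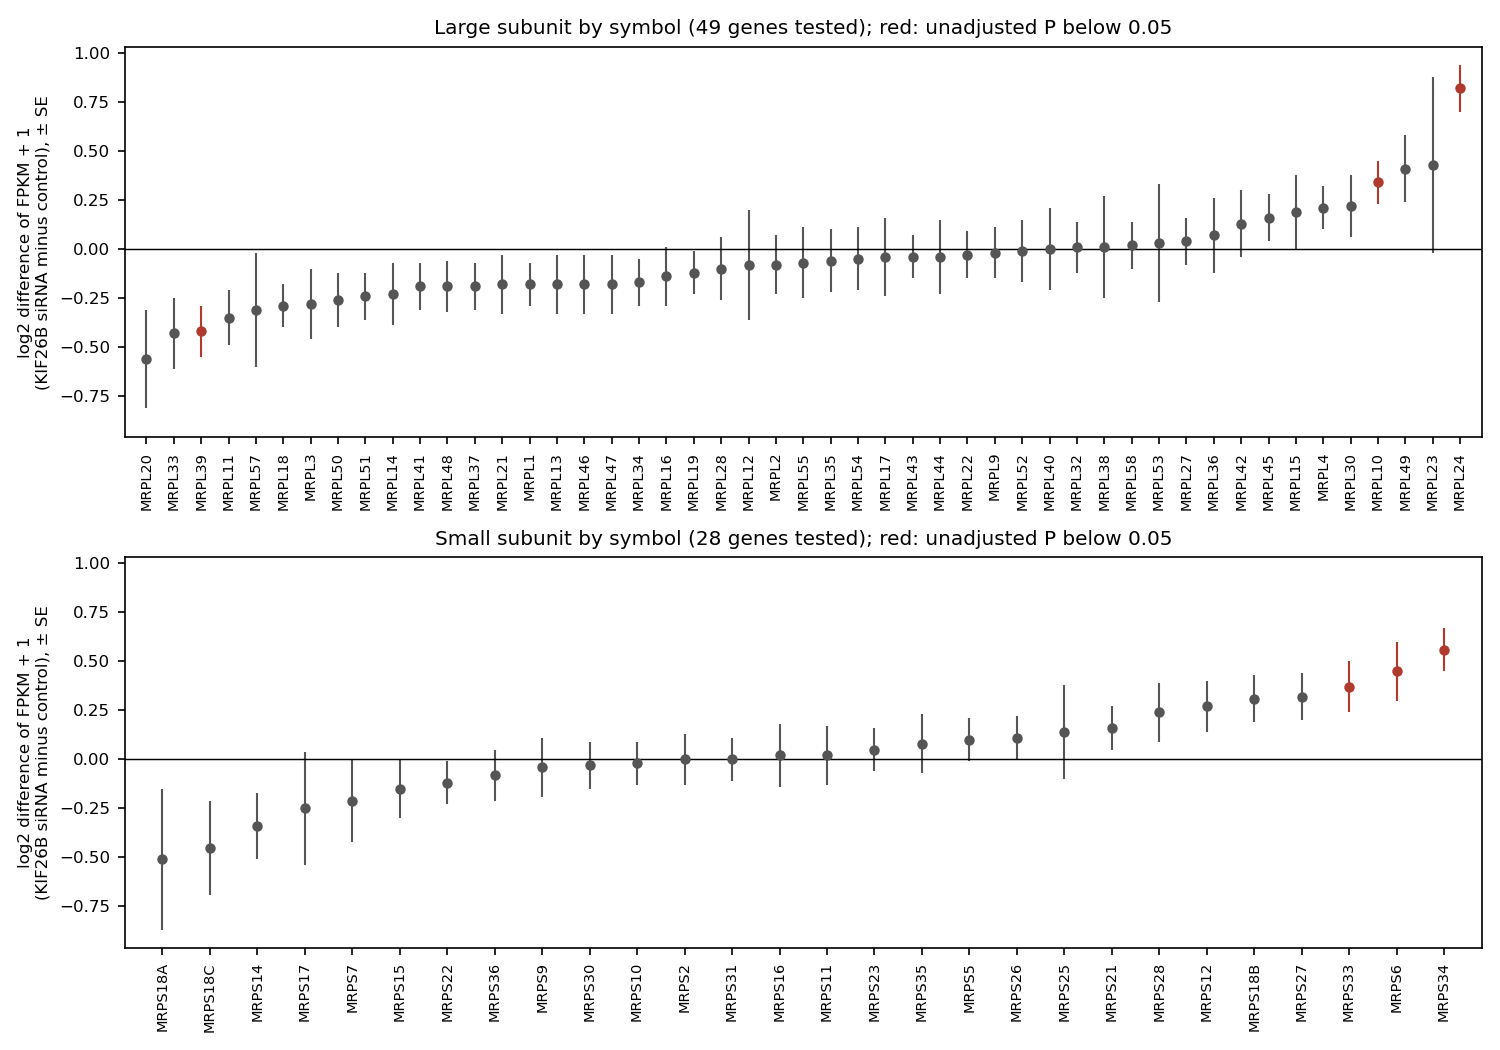
Log2 difference of FPKM + 1, KIF26B siRNA minus control siRNA, of the 49 large and 28 small subunit members tested, each with its SE from limma (2 libraries per group); red marks an unadjusted P below 0.05. The called members are MRPL39 at -0.42 on the low side and MRPL24 at 0.82, MRPS34 at 0.56, MRPS6 at 0.45, MRPS33 at 0.37 and MRPL10 at 0.34 on the high side.

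The large subunit held both the largest rise and the only fall that passed P below 0.05. MRPL24, the counterpart of a bacterial protein that starts subunit assembly and lies near the tunnel exit, read 24.6 and 23.8 FPKM in the controls and 41.6 and 45.3 FPKM with KIF26B siRNA, from at least 818, 994, 1506 and 1386 reads. Both KIF26B siRNA libraries were far above both controls. The log2 difference was 0.82 ± 0.12 (SE, n = 2 per group, limma adjusted p = 0.242). The promoter is shown because MRPL24 had the largest difference of the family. Its 250 bases upstream of the RefSeq start lie at chr1:156741089-156741338 on the minus strand of GRCh38.p14 and hold none of the 4 motifs searched below.
MRPL24: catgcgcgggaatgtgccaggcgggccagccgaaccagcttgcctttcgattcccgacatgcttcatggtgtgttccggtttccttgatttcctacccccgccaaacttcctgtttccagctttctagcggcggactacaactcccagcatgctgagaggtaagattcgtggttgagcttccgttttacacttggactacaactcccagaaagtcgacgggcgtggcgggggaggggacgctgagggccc

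MRPL10 carries the flexible stalk that recruits translation factors. It read 29.5 and 29.7 FPKM in the controls and 37.1 and 38.1 FPKM with KIF26B siRNA, with no overlap. The log2 difference was 0.34 ± 0.11 (SE, n = 2 per group, limma adjusted p = 0.284). MRPL12, the stalk protein itself, read 21.5 and 20.8 FPKM in the controls but 26 and 15.1 FPKM with KIF26B siRNA, so its libraries fell on both sides of the controls. Of the 5 members of the stalk list, MRPL10 was the only one past P below 0.05. The list's median log2 difference was -0.05.

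MRPL39, a mitochondrion-specific protein related to threonyl-tRNA synthetase, was the member that fell. It read 22.1 and 23.4 FPKM in the controls and 15.8 and 17.9 FPKM with KIF26B siRNA, from at least 520, 693, 404 and 387 reads. Neither KIF26B siRNA library reached the level of a control. The log2 difference was -0.42 ± 0.13 (SE, n = 2 per group, limma adjusted p = 0.274). Its promoter, shown as that of the only member called lower, lies at chr21:25607482-25607731 on the minus strand of GRCh38.p14 and also holds none of the 4 motifs.
MRPL39: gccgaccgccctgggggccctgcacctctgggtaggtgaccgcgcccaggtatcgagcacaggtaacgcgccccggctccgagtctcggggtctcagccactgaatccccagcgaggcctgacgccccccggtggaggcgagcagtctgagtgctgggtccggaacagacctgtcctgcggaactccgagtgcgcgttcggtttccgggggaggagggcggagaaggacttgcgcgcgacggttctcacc

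MRPL24 and MRPL39 both belong to the 8 members listed around the tunnel exit, whose other 6 genes did not pass P below 0.05 and whose median was -0.04. Among the 9 listed members of the central protuberance none passed, and the median was -0.06 with values from -0.43 to 0.04. The lowest of those was MRPL33, at 22.9 and 23.3 FPKM in the controls against 19.5 and 14.5 FPKM with KIF26B siRNA. MRPL20, which had the most negative value of all members, read 24.6 and 26.2 FPKM in the controls and 21.3 and 13.4 FPKM with KIF26B siRNA, a log2 difference of -0.56 ± 0.25 (SE, n = 2 per group, limma adjusted p = 0.359). These 2 genes were also picked after their values were seen, and in both the distance between the KIF26B siRNA libraries was wider than that from the higher of them to the controls.

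In the small subunit, 3 members rose and none fell. MRPS34, a mitochondrion-specific protein needed for a stable small subunit and mutated in Leigh syndrome, read 53.1 and 53.3 FPKM in the controls and 78.7 and 78.7 FPKM with KIF26B siRNA, from at least 1143, 1442, 1844 and 1559 reads. Libraries of each group were nearly equal and the groups lay far apart. The log2 difference was 0.56 ± 0.11 (SE, n = 2 per group, limma adjusted p = 0.242). Its promoter lies at chr16:1773135-1773384 on the minus strand of GRCh38.p14. It is shown because MRPS34 was the highest small subunit member by its mean over the 4 libraries and rose. Capitals mark a GABPA/ETS motif read on the opposite strand, starting 20 bases before the RefSeq start.
MRPS34: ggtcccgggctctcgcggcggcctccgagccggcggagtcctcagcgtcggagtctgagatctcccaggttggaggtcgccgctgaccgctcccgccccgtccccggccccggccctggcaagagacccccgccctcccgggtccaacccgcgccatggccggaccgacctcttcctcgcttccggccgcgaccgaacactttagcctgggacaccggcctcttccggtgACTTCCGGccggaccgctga

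The other 2 genes that rose were at low levels. MRPS6, the counterpart of bacterial S6, read 4.55 and 3.81 FPKM in the controls and 5.55 and 6.62 FPKM with KIF26B siRNA (log2 difference 0.45 ± 0.15, SE, n = 2 per group, limma adjusted p = 0.289). MRPS33, a mitochondrion-specific protein, read 4.81 and 4.74 FPKM against 5.95 and 6.98 FPKM (log2 difference 0.37 ± 0.13, SE, n = 2 per group, limma adjusted p = 0.299). In both genes the groups did not overlap. MRPS6, MRPS33 and MRPL10 no longer passed P below 0.05 with TPM scaling.

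The 3 paralogs of bacterial S18 gave values on different sides of 0. MRPS18C, which holds the bacterial position in the small subunit, read 4.42 and 4.62 FPKM in the controls and 4.01 and 2.26 FPKM with KIF26B siRNA, a log2 difference of -0.45 ± 0.24 (SE, n = 2 per group, limma adjusted p = 0.426). MRPS18B, at another site of the small subunit, read 33 and 30 FPKM against 38.4 and 40.2 FPKM, a difference of 0.31 ± 0.12 (SE, n = 2 per group, limma adjusted p = 0.316). MRPS18A, which despite its symbol sits in the large subunit, read 17.5 and 16.4 FPKM against 16.6 and 7.97 FPKM, a difference of -0.51 ± 0.36 (SE, n = 2 per group, limma adjusted p = 0.525). None of the 3 passed P below 0.05, and in MRPS18A and MRPS18C the lower value came from KIF26B siRNA replicate 2. Of 2 further genes whose place differs from their symbol, MRPS30, a large subunit protein, read 11, 12, 11.4 and 11.1 FPKM. MRPS36, a component of the oxoglutarate dehydrogenase complex and not of the ribosome, read 13, 15, 12.9 and 13.3 FPKM. In both genes the groups overlapped.

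The subunits were then set side by side. The large subunit had a median log2 difference of -0.07 with 33 of 49 members below 0, and the small subunit a median of 0.02 with 13 of 28 below 0, against -0.01 for all genes tested and -0.04 for the protein-coding ones. The large subunit median was also negative under the other scalings and without any 1 library, whereas that of the small subunit turned to -0.1 with TPM scaling (large -0.19), to -0.03 with TPM over nuclear genes (large -0.11) and to -0.03 without KIF26B siRNA replicate 1 (large -0.13). The SD between replicates of such a median was 0.07 for the large and 0.06 for the small subunit, so neither median stood clear of the replicate spread. In 17 large subunit members, or 34.7%, the KIF26B siRNA libraries both lay under the lower control, and in 6, or 12.2%, both lay over the higher one. Among all genes tested 27.8% lay wholly below and 24.9% wholly above, and among the protein-coding ones 31.4% and 24.3%. With TPM scaling the large subunit counts became 26 below and 4 above. In the small subunit 3 members, or 10.7%, lay wholly below and 11, or 39.3%, wholly above, but with TPM scaling these became 11 below and 5 above, where 39.5% and 16% of all genes did so. No test was made of these counts, since genes are not replicates.

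Large subunit genes wholly below the controls included abundant ones. MRPL18, of the central protuberance, read 45.5 and 46.8 FPKM in the controls and 37.6 and 37.8 FPKM with KIF26B siRNA. MRPL3, a conserved core protein, read 44.4 and 44 FPKM against 41.7 and 31.4 FPKM. MRPL11, at the base of the stalk, read 23.1 and 26.7 FPKM against 20.1 and 18.4 FPKM. None of these 3 passed P below 0.05, and neither did the following 3 genes, which lay wholly above the controls. MRPL49, a mitochondrion-specific protein of the large subunit, read 18 and 18 FPKM in the controls and 27.8 and 21.1 FPKM with KIF26B siRNA. In the small subunit MRPS27 read 13.2 and 12.6 FPKM against 17.4 and 15.4 FPKM, and MRPS12, the counterpart of the bacterial decoding-site protein S12, read 22 and 20.5 FPKM against 27.7 and 23.9 FPKM. These 6 genes were picked after their values were seen.

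Summed levels were compared next, and the ratio of the sums does not depend on how libraries are scaled to each other. Large subunit FPKM summed to 997 and 1033 in the controls and to 1012 and 927 with KIF26B siRNA, and the groups overlapped. Small subunit FPKM summed to 489 and 491 in the controls and to 549 and 518 with KIF26B siRNA, without overlap. Without MRPS34 the small subunit sums were 436 and 438 against 470 and 439, so KIF26B siRNA replicate 2 was then close to the controls. The ratio of large to small was 2.04 and 2.1 in the controls and 1.84 and 1.79 with KIF26B siRNA, or 2.07 ± 0.048 against 1.82 ± 0.0377 (SD, n = 2 per group). The 2 groups did not overlap, and an exact permutation test with 2 libraries against 2 cannot go below a two-sided p of 0.33. Without MRPL24 and MRPS34 the ratio was 2.23 and 2.31 in the controls and 2.06 and 2.01 with KIF26B siRNA. With members placed by their position in the ribosome it was 2.29 and 2.37 against 2.05 and 1.95.

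**Figure D4:**
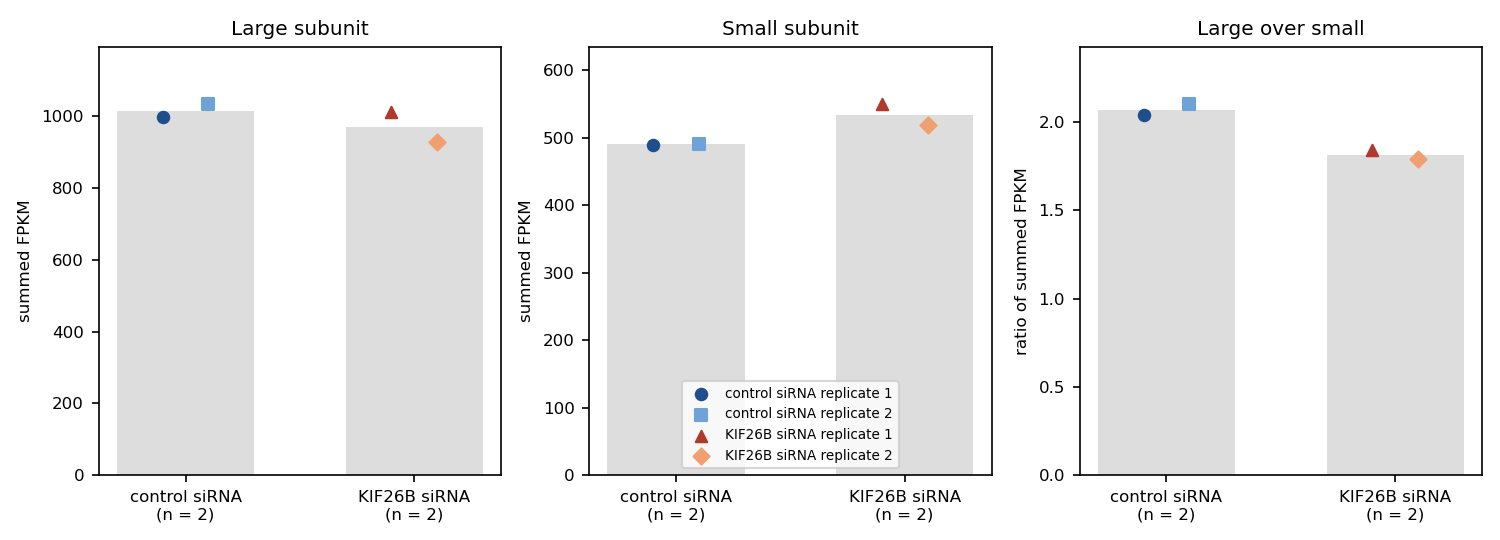
Summed FPKM of the 49 large and the 29 small subunit members and the ratio of the sums, per library (points) with the group mean (bars, n = 2 libraries each, axes from 0). The small subunit sum is higher and the ratio lower in both KIF26B siRNA libraries than in both controls, while the large subunit sums overlap.

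Evolutionary origin was examined with members placed by position. Of 30 large subunit proteins with a bacterial counterpart, 2 rose and none fell (median log2 difference -0.08). Of 21 that are mitochondrion-specific, none rose and 1 fell (median -0.04). Of 15 tested small subunit proteins with a bacterial counterpart 1 rose (median 0), and of 10 that are mitochondrion-specific 2 rose (median 0.12), with 6 of the 10 wholly above the controls, where 24.9% of all genes lay. This last class includes MRPS34 and MRPS33, and also MRPS18B, which lay wholly above the controls. MRPS18B and, in the mitochondrion-specific class of the large subunit, MRPS18A are paralogs of bacterial S18 that do not hold the bacterial position. The split by origin is therefore not strict for these genes. In the order given, 6.67%, 4.76%, 6.67% and 20% of the genes of each class passed P below 0.05, against 16.4% of all genes tested. The classes hold only genes with MRPL or MRPS symbols. Of 4 small subunit proteins with other symbols, 1 fell, 2 lay wholly below the controls and 1 lay wholly above. With TPM scaling the small subunit members wholly above went from 11 to 5, where 16% of all genes lay wholly above. None of these counts or medians was tested.

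Proteins of the same ribosome with other symbols were measured too. DAP3, a GTP-binding protein of the small subunit, read 25.8 and 26.3 FPKM in the controls and 32.1 and 43.4 FPKM with KIF26B siRNA, a log2 difference of 0.5 ± 0.18 (SE, n = 2 per group, limma adjusted p = 0.308). AURKAIP1, a mitochondrion-specific small subunit protein, read 66 and 73.4 FPKM against 54 and 48.5 FPKM and fell by 0.44 on the log2 scale (SE 0.13, n = 2 per group, limma adjusted p = 0.274). AURKAIP1 no longer passed P below 0.05 with the replicate block. In both genes the groups did not overlap, and DAP3 did not pass P below 0.05. CHCHD1 read 21.8 and 21.6 FPKM against 19.6 and 15.8 FPKM. PTCD3, which guides mRNA to the small subunit, read 11.6, 11.4, 10.3 and 11.7 FPKM, and GADD45GIP1, of the large subunit, read 32.9, 35.1, 32.7 and 37.1 FPKM. Neither CHCHD1 nor PTCD3 nor GADD45GIP1 passed P below 0.05.

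Around the ribosome, lists of genes for mitochondrial translation gave few calls, with 12.5% of translation factors, 10% of aminoacyl-tRNA synthetases and 11.5% of assembly genes past P below 0.05 against 16.4% of all genes tested. Of 16 translation factors 1 rose and 1 fell (median 0.08). The recycling factor MRRF read 6.08 and 5.98 FPKM in the controls and 7.87 and 7.87 FPKM with KIF26B siRNA (log2 difference 0.34, limma adjusted p = 0.284). SLIRP, which with LRPPRC stabilises mitochondrial mRNAs, read 17.6 and 20.3 FPKM against 13.7 and 9.05 FPKM (log2 difference -0.71, limma adjusted p = 0.287). Of 20 aminoacyl-tRNA synthetases 2 rose and none fell (median 0.14): FARS2, for phenylalanine, from 1.52 and 1.74 to 2.87 and 2.34 FPKM, and SARS2, for serine, from 1.02 and 1.05 to 1.91 and 2.23 FPKM. Of 26 assembly and rRNA modification genes 3 rose and none fell (median 0.07). These were the rRNA methyltransferase MRM1 (0.81), the endoribonuclease YBEY (0.47) and the pseudouridine synthase RPUSD3 (0.36), values being log2 differences. None of the 6 genes of mitochondrial transcription passed P below 0.05. MRRF, FARS2 and RPUSD3 no longer passed with the replicate block or with TPM scaling.

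The mitochondrial rRNAs, around which the proteins assemble, were higher with KIF26B siRNA. MT-RNR1 of the small subunit read 1009 and 1074 FPKM in the controls and 1340 and 1450 FPKM with KIF26B siRNA (log2 difference 0.42, limma adjusted p = 0.269). MT-RNR2 of the large subunit read 4718 and 4822 FPKM against 6794 and 11459 FPKM (log2 difference 0.89, limma adjusted p = 0.287). The KIF26B siRNA libraries differed from each other in MT-RNR2 by more than the lower of them differed from the controls. MT-RNR1 no longer passed P below 0.05 with the replicate block, and neither rRNA did with TPM scaling. Since mRNA was selected by its poly(A) tail, these values can also move with how much rRNA passed that step, whose part was not tested.

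Among 9 tested transcription factors and coactivators known to act on nuclear genes for mitochondrial proteins, 3 rose and none fell, or 33.3% called, where 7.74% of all genes tested rose and 8.68% fell. MYC read 78.5 and 78.5 FPKM in the controls and 146 and 158 FPKM with KIF26B siRNA (log2 difference 0.94 ± 0.11, SE, n = 2 per group, limma adjusted p = 0.242). ESRRA, an orphan nuclear receptor, read 23.1 and 22.1 against 30.6 and 29.8 FPKM. PPRC1, a coactivator, read 12.5 and 13.4 against 19.7 and 17.6 FPKM. ESRRA no longer passed P below 0.05 with the replicate block, with TPM scaling or with TPM over nuclear genes. The factors whose motifs were searched did not pass P below 0.05: NRF1 read 6.41, 6.61, 5.92 and 6.27 FPKM, GABPA 7.87, 8.12, 7.2 and 9.56 FPKM, and YY1 15.3, 15.9, 16.9 and 15.3 FPKM.

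The promoters of the members were compared by the letters they hold. RefSeq promoters of 300 bases on GRCh38.p14, 250 upstream and 50 downstream of the start, were matched by symbol for 69 of the 78 members, and 4 motifs were searched on both strands. The YY1 motif AAGATGGC, or GCCATCTT on the other strand, was in 20 of 69 member promoters, or 29%, against 5.69% of 9152 promoters of tested protein-coding genes and 3.03% of all 27305 promoters. The GABPA/ETS motif CCGGAAGT was in 11, or 15.9%, against 9.51% and 4.44%. The NRF1 motif GCGCATGC, which overlaps its own reverse complement, was in 6, or 8.7%, against 5.64% and 3.27%. The E-box CACGTG, a palindrome bound by MYC, was in 6, or 8.7%, against 10.3% and 7.43%. In all, 30 promoters held at least 1 of the 4, and 5 held both YY1 and GABPA/ETS motifs.

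**Figure D5:**
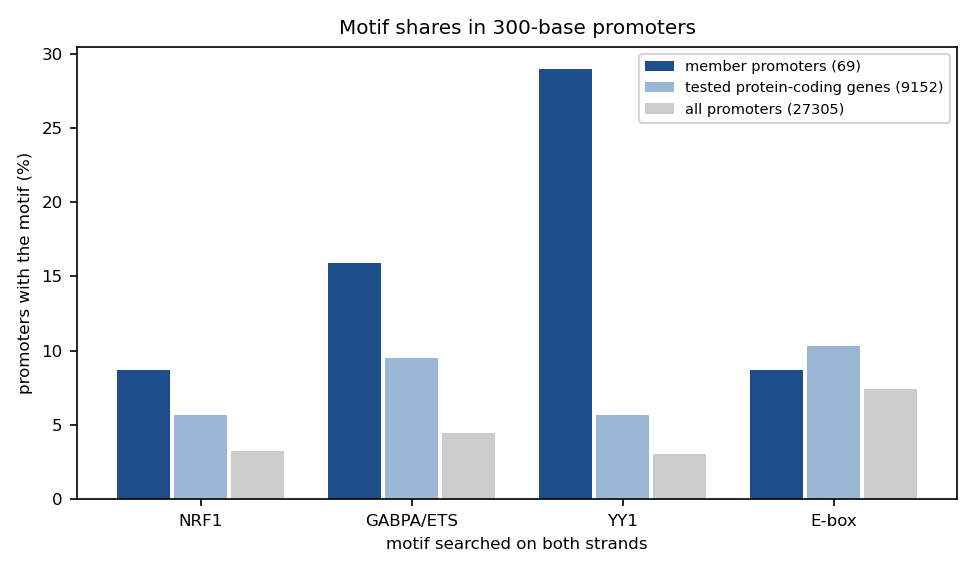
Percentage of promoters holding each of 4 motifs on either strand, for the 69 member promoters, 9152 promoters of tested protein-coding genes and all 27305 promoters (bars from 0). The YY1 motif shows the widest gap, at 29% of member promoters, and the E-box, at 8.7% of member promoters, lies between the 7.43% of all promoters and the 10.3% of tested protein-coding genes.

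Most YY1 matches lay just downstream of the start. Of 21 matches, 15 lay within the 50 bases downstream of the start and 6 upstream, while the GABPA/ETS matches were upstream in 12 cases and downstream in 1. On the gene strand the YY1 letters contain ATG, and in 12 of the 17 matches on that strand this ATG was an annotated start codon, so the same letters belong to the first codons of the protein. The following windows of 30 bases show the YY1 matches of those members singled out above for their level or place, with the motif in capitals. They are given 5′ to 3′ on the gene strand.
MRPS18A: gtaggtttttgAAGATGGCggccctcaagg
MRPS18B: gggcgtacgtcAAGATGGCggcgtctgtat
MRPS30: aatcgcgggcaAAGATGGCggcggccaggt
MRPS24: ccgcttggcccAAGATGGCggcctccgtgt
MRPL46: tgggagaacgaAAGATGGCggcgcccgtaa
MRPL38: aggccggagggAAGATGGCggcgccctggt
MRPL51: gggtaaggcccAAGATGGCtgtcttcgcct

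The first base of the motif in these windows was 10, 24, 14, 20, 9, 7 and 22 bases from the start, counted from 1 at the RefSeq start and in the order shown. They lie at chr6:43687764-43687793, chr6:30617852-30617881, chr5:44808949-44808978, chr7:43869480-43869509, chr15:88467362-88467391, chr17:75904860-75904889 and chr12:6493223-6493252. MRPS18B and MRPS30 are on the plus strand and the others on the minus strand. In MRPL51 the ATG was not an annotated start codon, and in the other 6 it was.

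Members with and without a motif were compared without a test. The median level was 14.2 FPKM with the YY1 motif and 18 FPKM without, and 12.8 FPKM with the NRF1 motif and 16.7 FPKM without. It was 15.9 against 16 FPKM for GABPA/ETS and 17.6 against 15.9 FPKM for the E-box. The 19 tested members with the YY1 motif had a median log2 difference of -0.02 and the 49 without it -0.04. With the GABPA/ETS motif the median was -0.12 over 11 members, and without it -0.03 over 57. The motif was in 12 of 42 large and 8 of 27 small subunit promoters for YY1, and in 9 of 42 and 2 of 27 for GABPA/ETS. A transcription start of another gene on the opposite strand within 1000 bases upstream was annotated on GRCh37 for 21 of the 78 members, or 26.9%, and for 22.4% of the tested protein-coding genes. A match of letters is a description and does not show that the factor binds there.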

How the data were processed

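RNA was measured in 4 HCT116 libraries, 2 per group, grouped and numbered by their labels. According to the Methods, the authors selected poly(A) mRNA, sequenced paired-end reads, aligned them with HISAT2 2.0.5 and compared groups with DESeq2; the submitters' processing notes also name featureCounts 1.5.0-p3. The Methods and these notes name different human genome builds. The values the authors deposited are FPKM, a unit read from the values; whole reads were recovered for 99.5% of genes above 0 (tolerance 0.02 reads) as the smallest whole-number solution and are therefore written as "at least". Identifiers were matched to GENCODE symbols (56513 of 58735). Exon sharing used GENCODE on GRCh37; promoters are RefSeq on GRCh38.p14, and these 2 builds were not combined.

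Limma 3.58.1 in R 4.3.3 was run on log2(FPKM + 1) for 14523 genes whose average reached 1 FPKM, without covariates, and p-values were adjusted by Benjamini-Hochberg over all of them. It had 2 residual degrees of freedom and a prior of 2.00. The functions were tested on simulated data. The members and lists were chosen with earlier results of these data known. Named genes are, per subunit, members past an unadjusted P below 0.05 with groups that do not overlap (up to 6 per direction), the 3 highest and 3 lowest, members whose symbol and place differ, the member below the filter, KIF26B, up to 3 genes per direction past that limit in each other list, and ribosomal proteins with other symbols. Others are said to be picked afterwards or serve as markers or motif factors. Alternatives were a replicate block, pseudocounts, filters, a variance trend, scalings, limma-voom, regrouped subunits and leaving out each library. The scalings of the counts of members whose groups do not overlap were added after seeing the data. Tables and plots were made in Python 3.11.15 (pandas 2.3.3; matplotlib 3.10.9).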

Additional observations from a re-analysis of the deposited data

How the results depend on the processing

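The count of members lower at an unadjusted P below 0.05, 1 as reported, was 0 with the replicate block, 2 with at least 1 FPKM in every library, 3 with a variance trend, 3 with limma-voom, 4 with no filter, and 5 with TPM scaling. Leaving out 1 library gave 0 to 20. The count of members higher, 5 as reported, was 2 with the replicate block, 8 with no filter and 2 with TPM scaling. Leaving out 1 library gave 1 to 14. Of all genes tested, 16.4% passed in the fit used, in both directions together. That share was 11.9% with the replicate block, 12.6% with no filter and 17% with a variance trend. It was 17.9% with limma-voom, 18.5% with at least 1 FPKM in every library and 19.2% with TPM scaling. The share also moved in the fits without 1 library. With TPM scaling, where the median of all genes moved to -0.12, the medians became -0.19 for the large and -0.1 for the small subunit. Members wholly below or above the controls became 26 below and 4 above in the large subunit. In the small subunit they became 11 below and 5 above. Under that scaling 39.5% of all genes lay wholly below and 16% wholly above. Among the named genes whose log2 difference was recomputed, the sign changed only for GADD45GIP1, to -0.09 with TPM scaling, -0.02 with TPM over nuclear genes and from -0.05 to 0.12 without 1 library (0.03 in the fit used), and for PTCD3, from -0.14 to 0.02 without 1 library (-0.06 in the fit used). The cause was not tested.

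The replicate numbers did not pair the libraries: the deviations of same-numbered libraries from their group means correlated at -0.003, with only 2 pairs. The replicate block changed the calls of MRPL10, MRPL39, MRPS6 and MRPS33, which no longer passed P below 0.05, and left 2 members higher, MRPL24 and MRPS34. Among the other named genes AURKAIP1, MRRF, FARS2, RPUSD3, ESRRA and MT-RNR1 lost the call under it too. All 6 called members lost P below 0.05 in at least 1 fit without a library, except MRPL24. With 2 libraries per group and at least 21 reads behind every tested value, small differences between members cannot be resolved.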
